A study of Mus musculus with 2 samples.

Results

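Capillary endothelial cells carrying RNA of the glycerol channel Aqp7 and the fatty acid translocase Cd36 were selected from the mandibular lymph nodes of mice, nodes that receive lymph from the head. A cell was included with at least 1 UMI of Pecam1, Aqp7 and Cd36, none of the lymphatic factor Prox1 and none of the high endothelial genes Fut7 and Chst4. It could hold at most 1 UMI of the arterial genes Gja5 and Sema3g together. A UMI, or unique molecular identifier, marks 1 captured RNA molecule. These rules gave 319 cells in the SAH library and 176 cells in the sham library, 495 of 22611 kept cells and of 27718 deposited barcodes. A kept cell showed no fewer than 500 genes, and mitochondrial RNA took no more than 10% of its UMIs.

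The SAH library came from mice 24 h after subarachnoid haemorrhage, a bleed around the brain made by infusing the animal's own blood, and the sham library from mice 24 h after a sham operation. The labels give no strain, sex, age or genotype, and the mandibular nodes of 20 mice were pooled in each library. Cells bearing CD45 were depleted, and cells bound by antibodies against CD31, the protein of Pecam1, or podoplanin were then kept on magnetic beads, so every share of cells below also carries that enrichment. The labels call the product lymphatic endothelial cells, but 6868 kept SAH and 6741 kept sham cells had Pecam1 and no Prox1 UMI and are called blood endothelium here. With 1 library per condition there is no replication, so nothing was tested, and each comparison is of these libraries and not of the conditions. Square brackets hold exact 95% intervals, which include only the error of counting UMIs or cells.

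Continuous capillaries of fat, heart and muscle pass fatty acids from blood to tissue. Lipoprotein lipase (Lpl), held on the capillary wall by Gpihbp1, frees fatty acids from circulating lipoproteins. Cd36 binds them at the cell surface, fatty acid binding proteins such as Fabp4 and Fabp5 carry them through the cytosol, and Aqp7 lets glycerol through the membrane. The transcription factors Meox2 and Tcf15 drive Cd36 and Lpl expression in mouse heart capillaries, and Pparg is the master regulator of lipid storage genes. C1qtnf9 encodes an adiponectin paralogue made by capillary endothelium.

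The selected cells had a median of 4353 UMIs in the SAH library and 4074.5 UMIs in the sham library, and their summed counts were 1660203 UMIs in SAH and 915711 UMIs in sham. Other blood endothelium had medians of 4848 and 4601 UMIs in SAH and sham. The median mitochondrial share of the selected cells was 3.19% in SAH and 4.16% in sham. The libraries shared 76 barcodes, and none of them was selected in both. Of selected barcodes, 3 in SAH and 1 in sham were also present in the other library.

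Markers of other cell types were counted in the selected cells as a check of the label. All 8 pan-endothelial markers were detected, with 7070 CPM in SAH and 7066 CPM in sham, where CPM is the count per 1000000 UMIs of the summed cells. High endothelial markers reached 906 CPM in SAH and 698 CPM in sham, against 12871 and 12486 CPM in other blood endothelium, and all but 2 of those 6 genes (Fut7 and Chst4, set to 0 by the selection) were present. Lymphatic markers summed to 1632 CPM in SAH and 725 CPM in sham, with Prox1 at 0 by selection and Reln at 0 in sham, and 3 cells of each library held 54.7% and 66.0% of those UMIs. Fibroblast markers reached 1381 CPM in SAH and 1569 CPM in sham, and mural markers 311 and 482 CPM. Fibroblast markers were found in 64.9% of selected SAH cells and 39.2% of selected sham cells, and lymphatic markers in 83.7% and 44.9%. Mural markers were found in 30.7% and 31.2%. In other blood endothelium of SAH and sham, fibroblast markers were found in 64.1% and 41.8% of cells and lymphatic markers in 87.1% and 59.8%. Adipocyte markers, which matter because adipocytes also make Fabp4 and Cd36, gave 49 UMIs in 26 SAH cells and 102 UMIs in 12 sham cells, and 1 sham cell held 90 of the sham UMIs. In other blood endothelium these markers had 4.26 CPM in SAH and 3.58 CPM in sham, against 29.5 and 111 CPM in the selected SAH and sham cells. The adipokine genes Lep and Retn were at 0 in SAH, and Cidec was at 0 in sham. Of 6 skeletal muscle markers, Acta1, Ckm, Myh4 and Tnnc2 were at 0 in both libraries, and Mylpf and Des together gave 104 CPM in SAH and 65.5 CPM in sham, against 123 and 43.1 CPM in other blood endothelium. Salivary gland markers gave 360 CPM in SAH and 256 CPM in sham, against 1366 and 197 CPM in other blood endothelium, and were found in 42.0% of selected SAH cells and 55.7% of selected sham cells. B-cell markers gave 1 UMI in SAH and 8 UMIs in sham, and T- and NK-cell markers gave 0 UMIs in SAH and 15 UMIs in sham. Macrophage markers gave 22 UMIs in SAH and 2 UMIs in sham. Haemoglobin RNA was unequal: 45 UMIs in SAH cells against 5473 UMIs in sham cells, where 3 cells held 99.8% of them. Leaving out the 2 sham cells with at least 50 haemoglobin UMIs left 174 sham cells, and the SAH over sham ratio of shares was then 1.80. How far RNA of other cells enters single gene values was not tested.

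The cells made up 4.64% [4.16, 5.17] of blood endothelium in the SAH library and 2.61% [2.24, 3.02] in the sham library, a ratio of 1.78 [1.48, 2.15]. Of all kept cells they were 2.79% in SAH and 1.58% in sham. Because the selection needs a UMI of Aqp7 and Cd36, kept cells with at least 2000 UMIs were also thinned at random to 2000 UMIs before selection. Cells with fewer UMIs were dropped, among them 37 SAH and 25 sham cells of the original selection. Selection after thinning left 155 of 6139 SAH cells (2.52%) and 87 of 6083 sham cells (1.43%), and the ratio was 1.77 [1.35, 2.32]. Gene ratios, gene counts and list medians given below as after thinning are of these 155 and 87 cells. Shares of cells found at 2000 UMIs a cell are of groups selected before thinning, less the dropped cells. Asking for at least 2 UMIs of each gene gave 118 SAH and 71 sham cells and a ratio of 1.63 [1.21, 2.22].

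The ratio was lower without the Cd36 condition. When it was dropped, and with the rest of the selection kept, 356 SAH cells and 234 sham cells carried Aqp7, or 5.18% and 3.47% of blood endothelium, with a ratio of 1.49 [1.26, 1.77]. Of these Aqp7-bearing cells, 37 in SAH (10.4% [7.42, 14.0]) and 58 in sham (24.8% [19.4, 30.8]) had no Cd36 UMI. Cd36 itself stood at 296 CPM in SAH and 108 CPM in sham in the rest of the blood endothelium, a ratio of 2.74 [2.65, 2.84]. Cells chosen by Gpihbp1 in place of Aqp7 were more numerous, 1913 in SAH and 974 in sham, with a ratio of 1.93 [1.78, 2.08]. The ratio stood above 1 under all 9 definitions shown in the plot of shares. The recovery of cells on the beads was not tested.

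**Figure D1:**
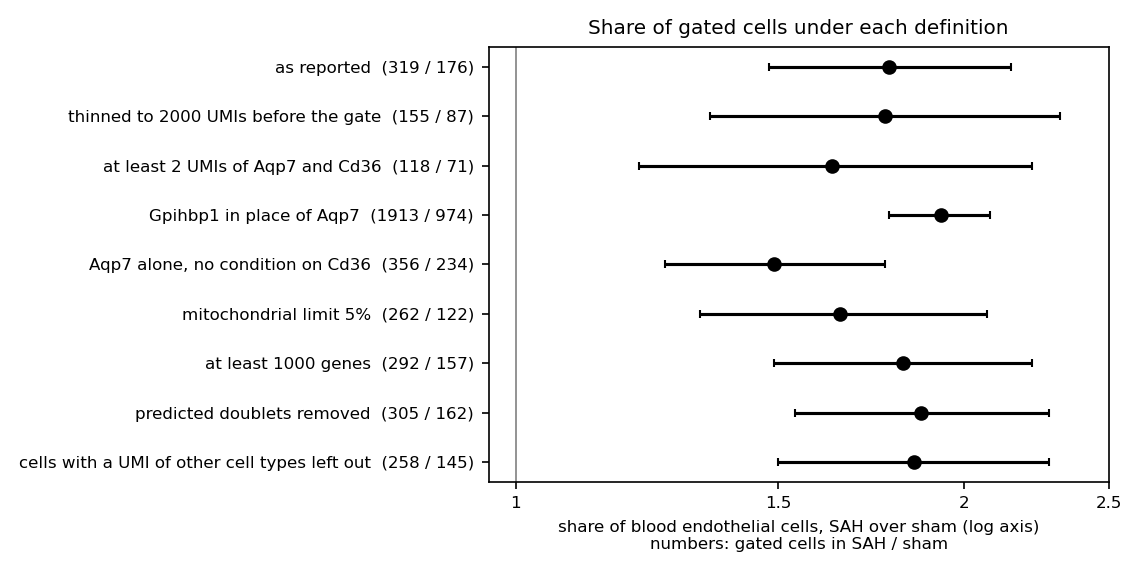
Ratio of the share of blood endothelium held by the selected cells, SAH over sham, on a log axis, under 9 definitions of the cells. Points are ratios, bars are 95% intervals of counting error, and numbers give selected cells in SAH and in sham. All intervals lie above 1, and the lowest ratio is 1.49 for Aqp7 with no condition on Cd36.

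Aqp7 (ENSMUSG00000028427, chr4:41033074-41048139, minus strand) and Cd36 (ENSMUSG00000002944, chr5:17781690-17888801, minus strand) chose the cells, so their values are given only as a description. Coordinates throughout are those of mouse build GRCm38 (mm10), from the GENCODE annotation. Aqp7 was sparse: 198 SAH cells (62.1%) and 102 sham cells (58.0%) held exactly 1 UMI, and the highest counts were 9 in SAH and 7 in sham. Its level was 320 CPM in SAH and 346 CPM in sham. Cd36 was denser, with a median of 12 UMIs a cell in SAH and 7.5 in sham, and 2885 CPM in SAH against 1958 CPM in sham (ratio 1.47 [1.40, 1.56]).

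The other 4 markers given for these cells were not used in the selection. Fabp4 (ENSMUSG00000062515, chr3:10204088-10208576, minus strand) reached 27090 CPM in SAH and 30356 CPM in sham. In other blood endothelium it had 2126 CPM in SAH and 2006 CPM in sham, so the selected cells stood 12.7-fold [12.6, 12.9] and 15.1-fold [14.9, 15.3] above them. Gpihbp1 (ENSMUSG00000022579, chr15:75596628-75599481, plus strand) reached 2179 CPM in SAH and 1380 CPM in sham, 4.48-fold and 4.34-fold above other blood endothelium. C1qtnf9 (ENSMUSG00000071347, chr14:60768134-60780869, plus strand) had 254 CPM in SAH and 165 CPM in sham, which was 7.16-fold and 9.41-fold above the other cells, and its locus overlaps the antisense gene Mipepos. Tcf15 (ENSMUSG00000068079, chr2:152143561-152149097, plus strand) had 402 CPM in SAH and 356 CPM in sham, 4.75-fold and 8.53-fold above the other cells. All 4 markers were thus higher in the selected cells in both libraries.

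Cell by cell, all 4 markers were found together in 149 SAH cells (46.7%) and 58 sham cells (33.0%), against 4.72% and 1.75% of other blood endothelium in SAH and sham. Only 10 SAH cells had 1 of the 4 and none had 0, and in sham 11 cells had 1 and 1 cell had 0. At 2000 UMIs a cell, Fabp4 was found in 93.3% of 282 selected SAH cells and 96.7% of 151 selected sham cells. Free RNA or attached cells may contribute to such shares, which was not tested. At that depth Fabp4 was found in 20.9% of fibroblastic cells in SAH and 12.1% in sham. The median depth before thinning of fibroblastic cells was 5343 UMIs in SAH and 4123.5 UMIs in sham. Tcf15 was found in 50.4% of selected SAH cells and 42.4% of selected sham cells, against 0.522% and 1.37% of fibroblastic cells. The unthinned Tcf15 shares were 72.1% and 60.8% in selected SAH and sham cells. Both genes were therefore found in a far larger share of selected than of fibroblastic cells.

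Among the other groups, the arterial cells (at least 2 UMIs of Gja5 and Sema3g) came closest for Fabp4 and Tcf15. They had 4725 CPM of Fabp4 in SAH and 3153 CPM in sham, and 211 and 108 CPM of Tcf15. This arterial group includes 23 SAH and 12 sham cells with Aqp7 and Cd36 that the selection left out for 2 arterial UMIs. How far those cells raise its levels was not tested. The Col13a1-bearing capillary cells followed for Fabp4 with 2314 CPM in SAH and 2267 CPM in sham, and the cells with Kit and Aqp1 had 1180 and 1673 CPM. For Tcf15 the order of these capillary groups was the other way round, with 103 CPM in SAH and 65.0 CPM in sham in Kit and Aqp1 cells and 85.7 and 34.5 CPM in Col13a1 cells. Lymphatic cells also carried Cd36, with 664 CPM in SAH and 612 CPM in sham, but only 3.67 and 2.19 CPM of Aqp7. Fibroblastic cells had the lowest Fabp4 of the 7 comparison groups plotted, 145 CPM in SAH and 112 CPM in sham.

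**Figure D2:**
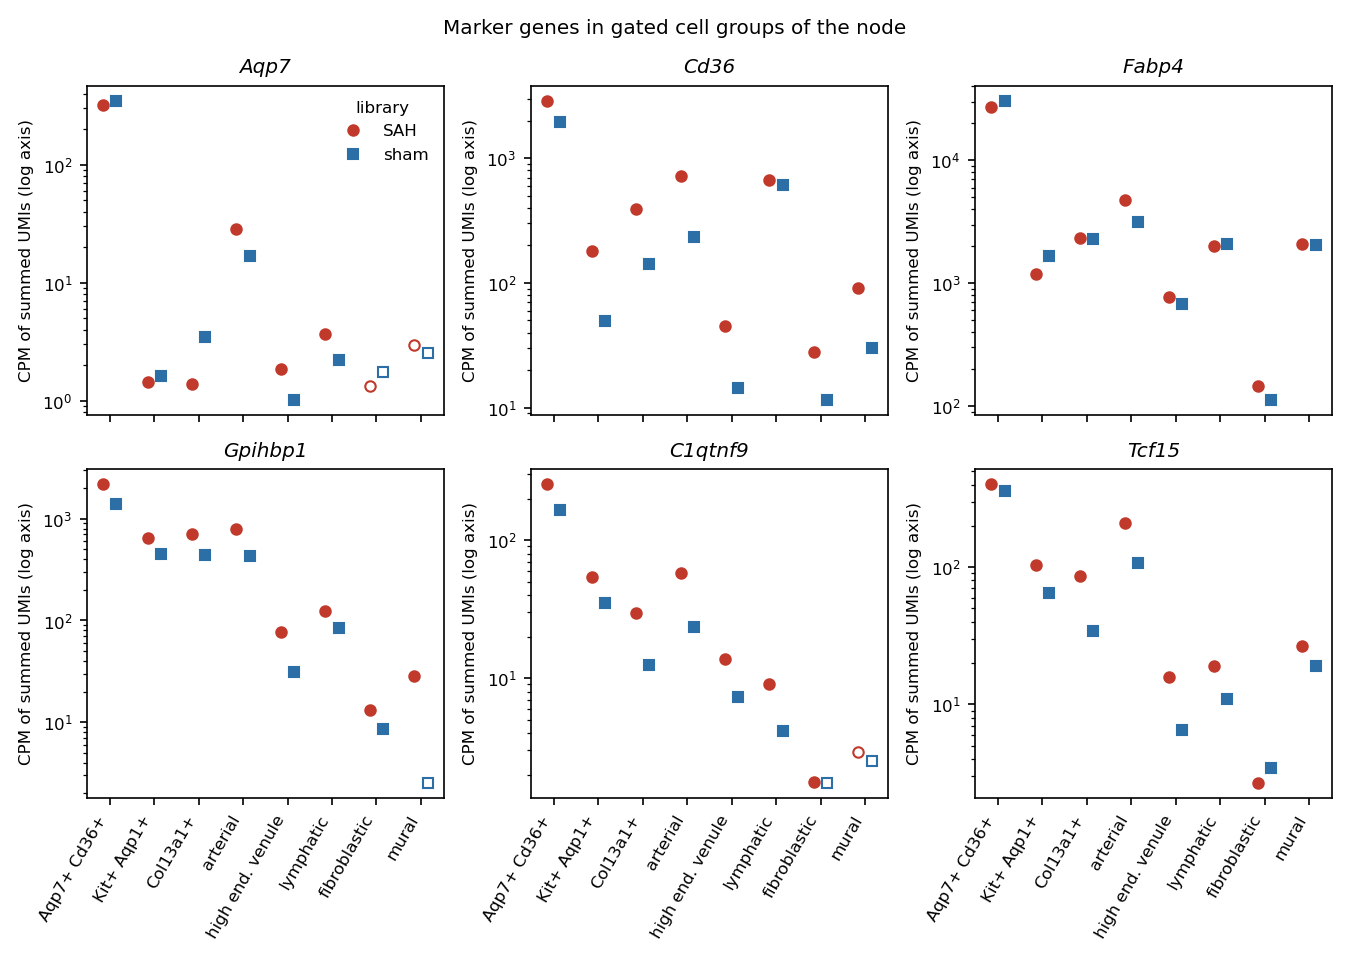
Levels of the 6 markers in 8 groups of cells of the node, as CPM of summed UMIs on log axes, with circles for the SAH library and squares for the sham library. Open symbols mark groups with at most 3 UMIs, drawn at the CPM of 3 UMIs. The selected cells at the left are highest for all 6 genes, of which Aqp7 and Cd36 chose them, and arterial cells come next for Aqp7 and Tcf15. The arterial group includes cells with Aqp7 and Cd36 that were left out for their UMIs of the arterial genes.

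Cells just inside and just outside the limits differed in the same genes. Cells with exactly 1 Aqp7 UMI had 20419 CPM of Fabp4 in SAH and 22969 CPM in sham. Blood endothelial cells with Cd36 and no Aqp7 had 4103 CPM in SAH and 5491 CPM in sham, and cells with Aqp7 and no Cd36 had 1228 and 3241 CPM. Cells that passed with exactly 1 Cd36 UMI, 20 in SAH and 14 in sham, were also low, with 3423 CPM in SAH and 4537 CPM in sham. The 23 SAH and 12 sham cells left out for holding 2 UMIs of the arterial genes looked like members, with 25523 CPM of Fabp4 in SAH and 25914 CPM in sham. Fabp4 thus differed most across the Aqp7 limit and hardly across the arterial limit.

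The cells also varied with the amount of Aqp7 they held. In SAH cells with 1, 2 to 3 and at least 4 Aqp7 UMIs, numbering 198, 97 and 24, Fabp4 stood at 20419, 32592 and 53479 CPM. In the 102, 54 and 20 sham cells of the same classes it stood at 22969, 32963 and 54173 CPM. Pparg stood at 96.1, 180 and 256 CPM across these classes in SAH and at 64.7, 115 and 180 CPM in sham. The monoacylglycerol lipase gene Mgll stood at 660, 772 and 1423 CPM in SAH and at 578, 844 and 1016 CPM in sham. Levels of these genes were thus ordered with Aqp7 in both libraries. Depth was not: the median UMIs of the classes were 3958, 5161 and 4186.5 in SAH and 3778, 3682.5 and 6374 in sham. Glycam1, a product of high endothelial venules that may also occur as free RNA, ran the other way, with 410 CPM at 1 UMI and 361 CPM at 4 or more in SAH, and 384 and 195 CPM in sham. At 2000 UMIs a cell it was found in 55.1% of SAH and 32.1% of sham fibroblastic cells, which should lack it, and in 54.6% and 36.4% of selected SAH and sham cells. Gpihbp1 was higher in SAH in each class, at 1916, 2366 and 3349 CPM in SAH against 1093, 1619 and 2009 CPM in sham. Fabp4 was not higher in SAH in any class.

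**Figure D3:**
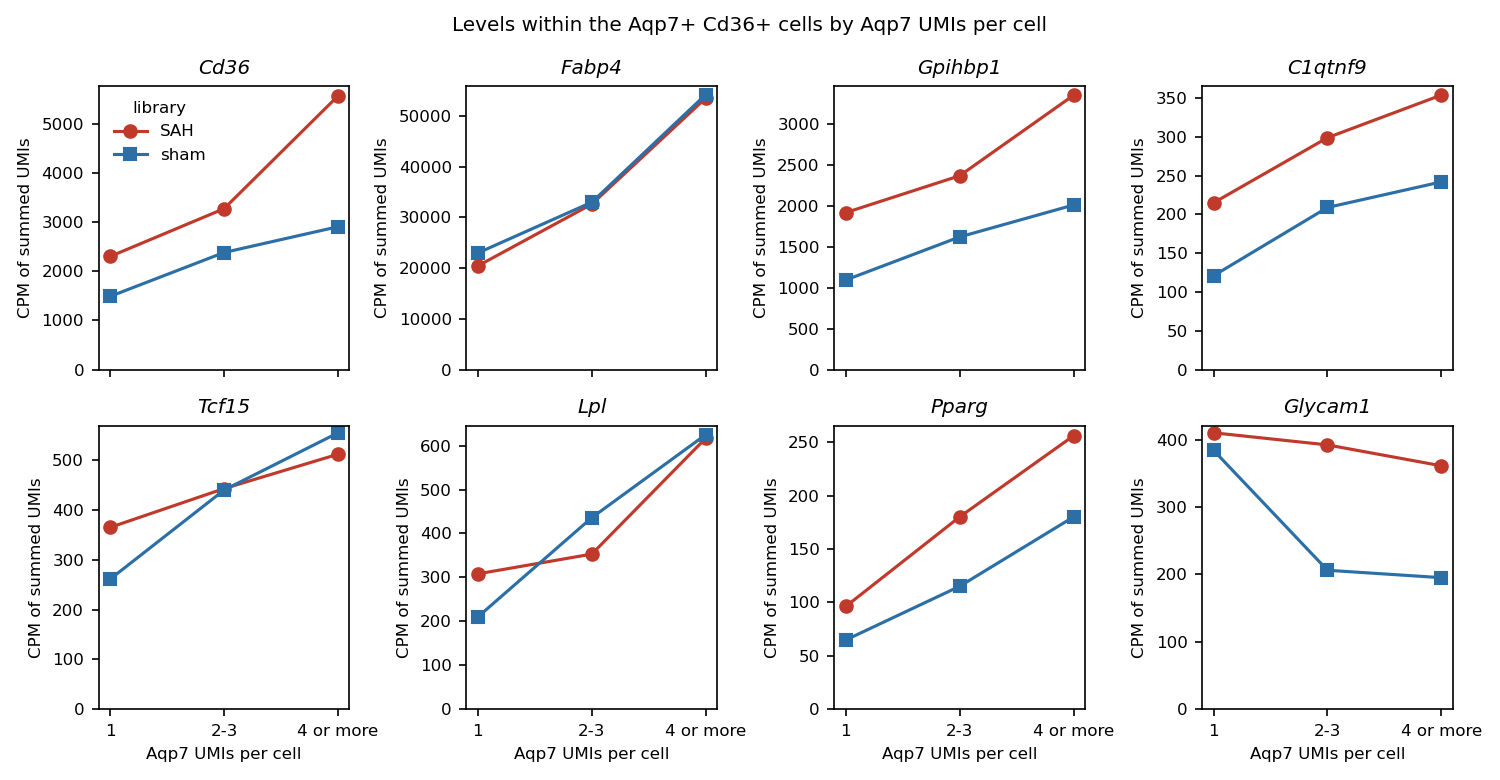
Levels of 8 genes within the selected cells, split by Aqp7 UMIs per cell (1, 2 to 3, or at least 4), as CPM of summed UMIs on axes that start at 0, with circles for SAH and squares for sham. Fabp4 reaches 53479 CPM in SAH and 54173 CPM in sham at the right, while Glycam1 is lower at the right than at the left.

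Beyond the markers, 6102 genes could be set against other blood endothelium of the same library. At a threshold of 1.5-fold, 287 genes (4.70%) were higher in both libraries and 223 genes (3.65%) were lower in both. These are descriptions of cells chosen by their RNA, not tests. The 15 genes highest above other blood endothelium were Fabp4, Gpr160, Slc28a2, Cldn15, C1qtnf9, Fam181b, Fabp5, Pparg, Hrct1, Cdkn1c, Slc26a10, Kcna5, Fmo1, Lmo7 and Tcf15. Gpr160, an orphan receptor gene, had 80.1 CPM in SAH and 42.6 CPM in sham, against 7.75 and 3.24 CPM in the other cells. Slc28a2, a purine nucleoside transporter gene, had 58.4 CPM in SAH and 75.4 CPM in sham, against 5.84 and 6.58 CPM. The claudin gene Cldn15 had 101 CPM in SAH and 61.2 CPM in sham, against 11.6 and 4.70 CPM. Pparg had 137 CPM in SAH and 96.1 CPM in sham, 7.83-fold [6.70, 9.11] and 5.97-fold [4.71, 7.47] above the other cells. Fmo1, a flavin monooxygenase gene, stood 4.87-fold and 5.58-fold above them in SAH and sham, and the cell cycle inhibitor gene Cdkn1c 5.09-fold and 6.48-fold.

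These genes were also higher than in both other capillary groups, by differing amounts. Fabp5 was 6.21-fold and 6.31-fold above Kit and Aqp1 cells in SAH and sham, and 6.47-fold and 7.28-fold above Col13a1 cells. Fam181b was 23.2-fold [12.2, 49.7] and 8.53-fold [5.12, 14.5] above Kit and Aqp1 cells, though only 10 SAH UMIs and 25 sham UMIs of it were found there. The potassium channel gene Kcna5 was only 1.83-fold [1.36, 2.45] and 2.45-fold [1.84, 3.22] above Kit and Aqp1 cells, in SAH and sham, while it was 5.15-fold and 5.37-fold above Col13a1 cells. Arterial cells came nearer for some genes, with 44.9 CPM of Slc26a10 in SAH and 28.3 CPM in sham against 84.3 and 52.4 CPM in the selected cells, and 21.4 and 36.4 CPM of Lmo7 against 39.2 and 61.2 CPM. Fmo1 was higher in lymphatic cells, with 186 CPM in SAH and 128 CPM in sham, than in the selected cells, with 163 and 90.6 CPM.

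The 10 genes furthest below other blood endothelium were Glycam1, Ackr1, Serpina1e, Oit1, Ccl20, Ubd, Pglyrp1, Dsg2, Serpina1b and Cmah. Glycam1, which encodes a mucin-like L-selectin ligand, had 400 CPM in SAH and 304 CPM in sham against 10877 and 10806 CPM. Ackr1, the atypical chemokine receptor of venules, had 6.02 CPM in SAH and 5.46 CPM in sham against 164 and 199 CPM. The chemokine gene Ccl20 had 3.01 CPM in SAH and 13.1 CPM in sham against 37.8 and 128 CPM. Serpina1e and Serpina1b belong to a family of near-identical copies, so UMIs may be divided among its members uncertainly. Among the 7 comparison groups, all of these genes but Ccl20 and Cmah were highest in high endothelial cells, and those exceptions were highest in lymphatic cells. Cells with Fut7 or Chst4 were left out by the selection but remain in other blood endothelium. How far this lowers the ratios of high endothelial genes was not tested. Groups other than high endothelial cells could be as low: Glycam1 in sham stood at 304 CPM in the selected cells, 296 CPM in Col13a1 cells and 347 CPM in arterial cells, and Ackr1 in SAH at 6.02 CPM in the selected cells and 7.43 CPM in arterial cells. For Dsg2 they were not as low, though the Kit and Aqp1, Col13a1 and arterial groups were also chosen without Fut7 and Chst4 UMIs. Dsg2 had 23.5 CPM in selected SAH cells and 19.7 CPM in selected sham cells. It had 168 and 177 CPM in Kit and Aqp1 cells, 57.0 and 36.7 CPM in Col13a1 cells and 82.4 and 51.1 CPM in arterial cells.

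Grouped by role, the genes higher than in other blood endothelium in both libraries covered several steps of lipid transfer. The counts of this and the next paragraph are to be read beside the shares over all 6102 genes, 4.70% higher and 3.65% lower. They were Fabp4 and Fabp5 of 7 tested genes of fatty acid uptake and carriage, and Gpihbp1, Lpl and Angptl4 of 8 genes of lipoprotein lipolysis. Lpl had 348 CPM in SAH and 336 CPM in sham, against 78.5 and 58.8 CPM in other blood endothelium. Of 6 tested genes of glycerol and lipid droplets these were Lipe, Mgll and Plin2. Mgll had 758 CPM in SAH and 720 CPM in sham, against 188 and 121 CPM. Of 11 transcription factors of such capillaries, Tcf15, Meox2 and Pparg were higher and Meox1 was lower. Meox1 had 145 CPM in SAH and 150 CPM in sham, against 290 and 353 CPM, while its relative Meox2 had 131 and 149 CPM against 34.6 and 27.1 CPM.

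Membrane and junction genes formed a further group. Of 11 caveola and transcytosis genes, 5 were higher in both libraries. These were Cav1, Cav2, Ehd2 and the cavin genes Cavin1 and Cavin2, which the files name Ptrf and Sdpr. Sdpr had 905 CPM in SAH and 842 CPM in sham, against 253 and 212 CPM. Of 13 junction genes, 6 were higher in both (Cldn5, Tjp1, Jam2, Jup, Ptprb and Cldn15). None of the 16 NF-kB target genes tested was higher and 7 were lower, including the adhesion genes Icam1 and Vcam1. Of 11 coagulation genes 6 were lower, including Vwf. Other blood endothelium includes the high endothelial cells that the selection left out. The lists of this and the preceding paragraph are not compared here with the other capillary groups. Neither their high nor their low counts are therefore shown to be particular to the selected cells. In contrast, interferon-stimulated genes stood near the level of other blood endothelium, with medians of −0.11 (log2) in both libraries, and only Rsad2 of the 36 was higher in both, while Cxcl9, Cxcl10 and Irf8 were lower.

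Setting the SAH library against the sham library within the selected cells, 6121 genes had a mean of at least 20 CPM and were not used in the selection. Of them 640 (10.5%) were at least 1.5-fold higher in SAH and 422 (6.89%) at least 1.5-fold lower, and the median log2 ratio was 0.02. In other blood endothelium, with far more cells, 299 of 6015 genes (4.97%) were higher and 130 (2.16%) were lower. Counting error is larger in the smaller group: the whole interval lay beyond 1.5-fold for 72 of the higher and 40 of the lower genes. Each list below is to be read beside those background shares.

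Lipid genes showed no common shift. Of 7 fatty acid genes 1 was higher and 1 lower in SAH, with a median log2 ratio of −0.22. Fabp4 differed little, at 0.892-fold [0.879, 0.906], and Fabp5 was lower with 796 CPM in SAH and 1396 CPM in sham, 0.571-fold [0.528, 0.617]. Fabp5 was also lower in other blood endothelium (0.613-fold). The acyl-CoA synthetase gene Acsl5 had 56.6 CPM in SAH and 36.0 CPM in sham, a ratio of 1.57 [1.05, 2.41]. Of 8 lipolysis genes 2 were higher and none lower, and the median log2 ratio was 0.21. Gpihbp1 was 1.58-fold [1.48, 1.68] higher and Angptl4, an inhibitor of lipoprotein lipase, had 156 CPM in SAH and 79.7 CPM in sham, 1.96-fold [1.5, 2.57] higher. Lpl was close to equal, with 348 CPM in SAH and 336 CPM in sham. In other blood endothelium Gpihbp1 was 1.53-fold and Angptl4 3.67-fold higher in SAH.

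Of 7 glycerol and droplet genes, the hormone-sensitive lipase gene Lipe alone was past the threshold, with 189 CPM in SAH and 107 CPM in sham, 1.77-fold [1.40, 2.24] higher. The triglyceride lipase gene Pnpla2 lay just under it at 1.47-fold [1.14, 1.90], while Mgll was at 1.05-fold and the droplet coat gene Plin2 at 1.02-fold. Of 11 transcription factors none was higher and Fosl2 was lower, with 84.3 CPM in SAH and 145 CPM in sham. Tcf15 was at 1.13-fold [0.989, 1.29], Meox2 at 0.884-fold [0.710, 1.10] and Pparg at 1.42-fold [1.11, 1.84]. In other blood endothelium Tcf15 was 2.03-fold [1.91, 2.16] higher in SAH, with 84.7 CPM in SAH and 41.7 CPM in sham. Of 14 PPAR target genes 3 were higher and none was lower, Angptl4 and Acaa2 among them, with a median log2 ratio of 0.20. In other blood endothelium 5 of 14 were higher and none was lower, with a median of 0.33. Acaa2, a thiolase of fatty acid oxidation, had 89.1 CPM in SAH and 52.4 CPM in sham, 1.70-fold [1.22, 2.41].

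Of 19 capillary and angiokine genes, C1qtnf9, Car4, Btnl9 and Plvap were higher in SAH and Aplnr and Unc5b lower, and the median log2 ratio was 0.34 against 0.06 in other blood endothelium. Over 13 alternative settings the median in the selected cells ranged from 0.13 to 0.34, so 0.34 is at the upper end. Car4, a carbonic anhydrase of the capillary surface, had 511 CPM in SAH and 261 CPM in sham, 1.96-fold [1.70, 2.27] higher, and 1.82-fold higher in other blood endothelium. At 2000 UMIs a cell Car4 was found in 52.1% of selected SAH cells and 30.5% of selected sham cells. Plvap, the protein of fenestral and caveolar diaphragms, had 2350 CPM in SAH and 1557 CPM in sham (1.51-fold [1.42, 1.60]). Ehd4, a membrane-remodelling gene of the caveola list, had 591 CPM in SAH and 369 CPM in sham (1.60-fold [1.41, 1.82]), against 1.02-fold in other blood endothelium. Cav1 was lower without passing the threshold, at 907 CPM in SAH and 1158 CPM in sham (0.784-fold). Aplnr, the apelin receptor, had 137 CPM in SAH and 370 CPM in sham, 0.371-fold [0.312, 0.440], and its ligand gene Apln fell under the level tested with 1.81 CPM in SAH and 14.2 CPM in sham. Aplnr was lower in SAH in other blood endothelium too, at 0.347-fold. Of 13 junction genes only Cldn15 was higher and none was lower, and the cadherin gene Cdh5 had 924 CPM in SAH and 1158 CPM in sham.

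Interferon-stimulated genes gave the highest list median with the cells as selected. The complement list was higher after thinning (0.76 against 0.45), without predicted doublets (1.10 against 0.83) and without the Cd36 condition (0.85 against 0.83). Over 13 alternative settings the complement median ranged from 0.16 to 1.10 and the interferon-stimulated median from 0.45 to 0.89. Of 36 interferon-stimulated genes tested, 30 were at least 1.5-fold higher in SAH and none was lower, with a median log2 ratio of 0.80. In other blood endothelium 26 of 38 were higher and none lower, with a median of 0.73, so the selected cells were not alone in this. Irf7 (ENSMUSG00000025498, chr7:141262706-141266481, minus strand), a transcription factor of the interferon response, had 391 CPM in SAH and 65.5 CPM in sham, 5.97-fold [4.57, 7.91]. It was 4.56-fold higher in other blood endothelium, 5.65-fold in lymphatic and 5.44-fold in fibroblastic cells. At 2000 UMIs a cell Irf7 was found in 49.3% of selected SAH cells and 13.9% of selected sham cells, and in 50.7% and 17.6% of other blood endothelium in SAH and sham. The corresponding shares of fibroblastic cells were 17.5% and 3.01%. The nucleic acid sensor gene Zbp1 had 60.8 CPM in SAH and 17.5 CPM in sham (3.48-fold [2.04, 6.32]), and the membrane protein gene Ifitm3 had 4016 CPM in SAH and 2467 CPM in sham (1.63-fold [1.55, 1.71]). The tethering factor gene Bst2 had 1020 CPM in SAH and 663 CPM in sham. Irf1, Irf8 and Trim30a were not past the threshold, at 1.09-fold, 1.01-fold and 0.95-fold. Ifit3 and Ifit3b are near-identical copies, and their values of 1.80-fold and 2.45-fold are uncertain one against the other.

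Rsad2, which encodes viperin, had 419 CPM in SAH and 168 CPM in sham (2.49-fold [2.09, 2.98]). Other blood endothelium had 242 CPM in SAH and 109 CPM in sham, but Kit and Aqp1 cells had 425 CPM in SAH and Col13a1 cells 199 CPM in sham. The ubiquitin-like Isg15 had 361 CPM in SAH and 145 CPM in sham (2.48-fold [2.06, 3.02]). Antigen presentation genes of MHC class I were higher for 7 of 19 and lower for none, with a median log2 ratio of 0.48 and of 0.38 in other blood endothelium. H2-T23, a non-classical class I gene, had 717 CPM in SAH and 245 CPM in sham (2.93-fold [2.54, 3.40]), and the immunoproteasome gene Psmb8 had 549 CPM in SAH and 294 CPM in sham (1.87-fold [1.63, 2.15]). H2-D1 was at 1.52-fold and H2-K1 at 0.826-fold. Class I genes are near-identical copies that the counting could divide uncertainly, and an antisense gene covers H2-T23.

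The core of the interferon-stimulated response element (GAAA, any 2 bases, then GAAA again) was looked for on both strands in promoter windows of RefSeq (GRCm38.p6) from 250 bases before to 50 bases after each gene's start. It was present for 1079 of 27025 genes with a window (3.99%), and for 19 of 29 interferon-stimulated genes with a window (65.5%). Windows of 3 of the 9 matched highest SAH over sham genes held it (Rsad2, Isg15 and H2-T23), and none of the 10 matched lowest genes and none of the 3 matched markers. The window used for Irf7 did not hold these letters. The direct repeat of AGGTCA with any 1 base between its copies, a PPAR-type element, was in 0.0481% of all genes' windows and in no window of the markers. The E-box CACGTG was in 8.09% of genes' windows and in none of the markers. A match of letters is a description, not a site shown to act. Stretches of 120 bases of 4 named genes that hold the core are shown because these genes differed between the libraries. Capitals mark the core, which reads GAAA on the printed strand for Isg15 and Bst2 and TTTC, its reverse complement, for Rsad2 and H2-T23. All are on the minus strand and written 5′ to 3′ in the direction of the gene. They lie at chr4:156200826-156200945 (Isg15), chr8:71537535-71537654 (Bst2), chr12:26456508-26456627 (Rsad2) and chr17:36032761-36032880 (H2-T23).
Isg15: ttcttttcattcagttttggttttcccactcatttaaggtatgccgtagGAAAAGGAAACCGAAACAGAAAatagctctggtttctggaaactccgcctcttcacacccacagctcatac
Bst2: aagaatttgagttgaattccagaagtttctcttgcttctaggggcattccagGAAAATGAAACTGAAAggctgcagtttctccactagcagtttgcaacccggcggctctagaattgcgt
Rsad2: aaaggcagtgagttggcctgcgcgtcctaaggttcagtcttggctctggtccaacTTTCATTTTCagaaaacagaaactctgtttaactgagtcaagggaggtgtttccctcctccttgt
H2-T23: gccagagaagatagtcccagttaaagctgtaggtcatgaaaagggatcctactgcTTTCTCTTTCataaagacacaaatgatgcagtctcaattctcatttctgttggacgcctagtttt
In Isg15 3 matches overlap, between 78 and 57 bases before the annotated start, and in Bst2 2 matches overlap between 130 and 115 bases before it. The single matches of Rsad2 and H2-T23 lie 120 to 111 and 124 to 115 bases before their starts. These distances are from RefSeq starts, and in the GENCODE annotation H2-T23 reaches to base 36032855 of chromosome 17, so that its match lies within the gene there.

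**Figure D4:**
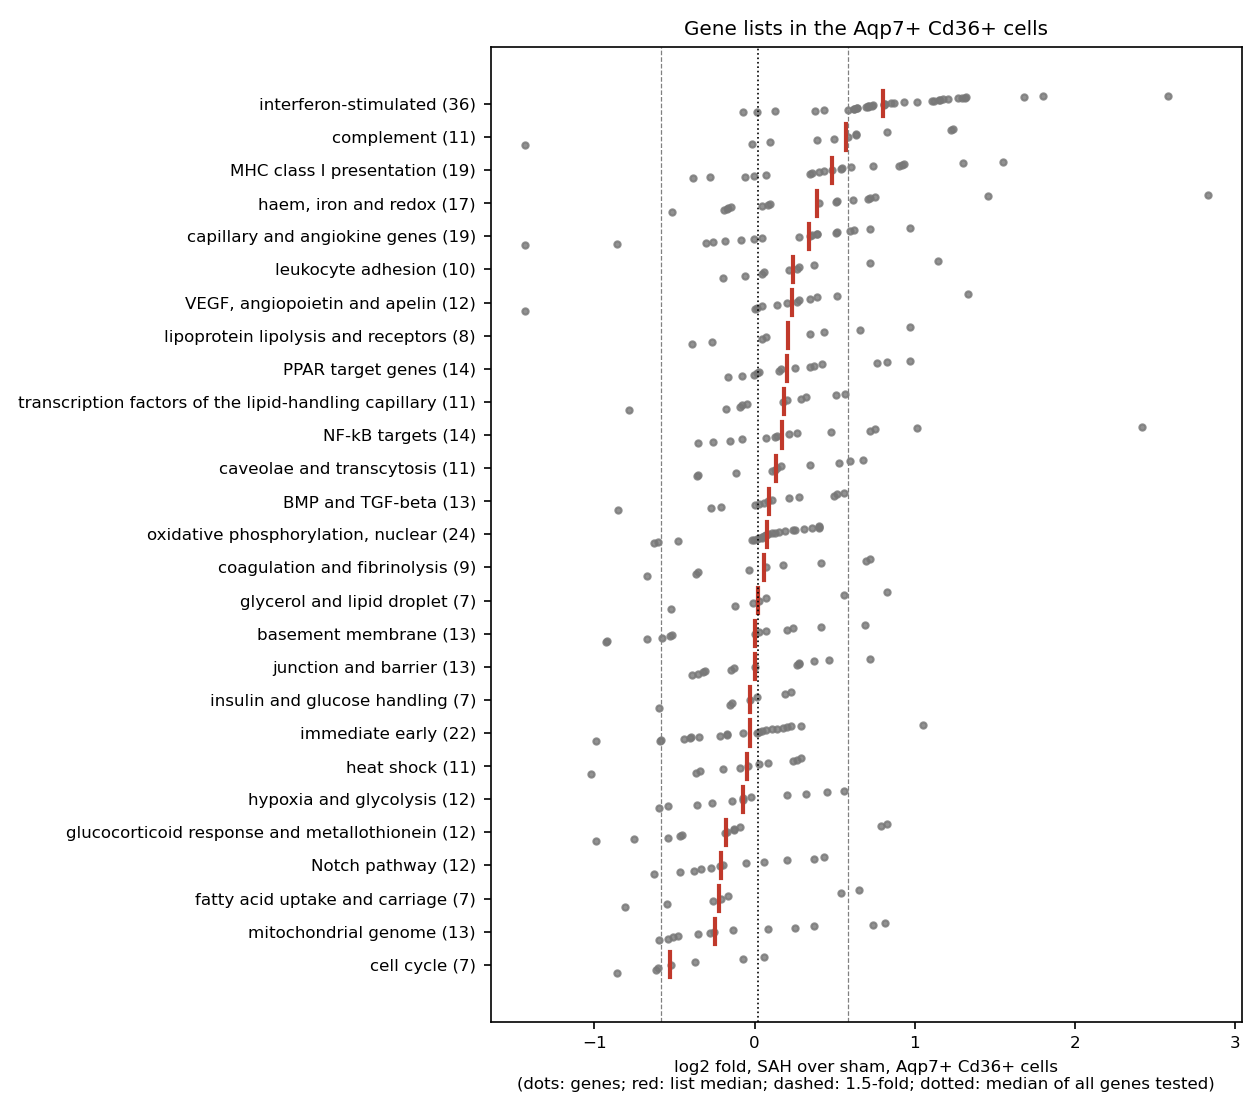
Log2 ratios of SAH over sham in the selected cells for 27 gene lists, with the number of genes tested in brackets. Dots are genes, red bars list medians, dashed lines 1.5-fold and the dotted line the median of all genes tested (0.02). The interferon-stimulated list is highest with a median of 0.80 and cell cycle genes are lowest with −0.53 in the cells as selected, but not after thinning to 2000 UMIs, where they are at 0.45 and −0.09.

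Among the 12 genes highest in SAH were Ccdc85b, Irf7, Trim37, Ifi27l2a, Grcc10, H2-T23, Gpx3, Serpina3n, Cd24a, Rsad2 and Isg15. Ccdc85b, a coiled-coil protein gene, had 161 CPM in SAH and 15.3 CPM in sham, 10.6-fold [6.18, 19.6] higher. It stood 7.75-fold higher in other blood endothelium and 9.27-fold in lymphatic cells. Ccdc85b overlaps Fosl1 on the opposite strand and Grcc10 overlaps another coding gene on the same strand, so their UMIs may be uncertain. Trim37 and Grcc10 were 3.47-fold and 3.26-fold higher here, and 4.59-fold and 2.86-fold in other blood endothelium. The interferon-induced Ifi27l2a had 466 CPM in SAH and 145 CPM in sham, but 10 cells held 50.5% of its UMIs in SAH and 67.7% in sham. Serpina3n, an acute-phase protease inhibitor, had 160 CPM in SAH and 60.1 CPM in sham, and 10 cells held 71.4% of its SAH UMIs while all its sham UMIs lay in 8 cells. Gpx3, an extracellular peroxidase, was likewise concentrated, with 71.1% and 93.3% of its UMIs in 10 cells of SAH and sham. Gpx3 had 89.7 CPM in selected SAH cells and 32.8 CPM in sham, against 895 and 384 CPM in fibroblastic cells. Fibroblastic cells had 1115 CPM of Serpina3n in SAH and 234 CPM in sham, and lymphatic cells 3917 and 1341 CPM of Ifi27l2a. These levels lay under the limit used below for possible free RNA, 10 times the higher level of the selected cells. Gpx3 was only just under it, at 895 against 89.7 CPM. Within the sham library alone Gpx3 was past 10 times, at 384 against 32.8 CPM. How far other cells supply these UMIs was not tested. Cd24a, a surface sialoglycoprotein gene, had 105 CPM in SAH and 40.4 CPM in sham (2.59-fold [1.81, 3.81]), against 1.28-fold [1.22, 1.34] in other blood endothelium. After thinning to 2000 UMIs, the log2 ratios of Cd24a, Gpx3 and Serpina3n were 0.17, 0.34 and 0.49, under the threshold, and the contrast of Cd24a with other blood endothelium rests on unthinned cells. The thinned ratios are of 155 SAH and 87 sham cells selected again after thinning, rest on fewer UMIs and have no interval.

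The 12 genes lowest in SAH were C1qbp, Aplnr, Mcam, Camta1, Hypk, Lbh, Lum, Ackr3, Fscn1, Cdk4, Siva1 and Ppp1r14b. C1qbp, a mitochondrial protein gene counted in the complement list, had 34.3 CPM in SAH and 92.8 CPM in sham (0.370-fold [0.260, 0.523]), and was at 0.623-fold in other blood endothelium. Mcam, the adhesion molecule CD146, had 44.0 CPM in SAH and 111 CPM in sham (0.395-fold [0.288, 0.538]). The scavenging chemokine receptor Ackr3 had 57.8 CPM in SAH and 122 CPM in sham (0.473-fold), and stood at 0.471-fold in other blood endothelium. Cdk4, a kinase of the G1 phase, had 58.4 CPM in SAH and 121 CPM in sham (0.482-fold). Fscn1, which bundles actin, had 78.3 CPM in SAH and 165 CPM in sham (0.475-fold). Hypk overlaps Serf2 on the same strand, and Camta1, Cdk4 and Ppp1r14b overlap other genes, so these values may be uncertain. The fibroblast proteoglycan gene Lum had 44.6 CPM in SAH and 95 CPM in sham, with 10 cells holding 86.5% and 94.3% of it, against 489 and 923 CPM in fibroblastic cells. Its direction turned with predicted doublets removed (log2 ratio 0.15) and after thinning (0.39). Thinning also took Fscn1 and Mcam inside 1.5-fold, at log2 ratios of −0.36 and −0.51. Lbh did so at −0.29 with Gpihbp1 in place of Aqp7, and Ppp1r14b at −0.50 with at least 2 UMIs of Aqp7 and Cd36. The thinned ratios rest on fewer cells and UMIs and have no interval. All 12 ratios were also below 1 in other blood endothelium.

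**Figure D5:**
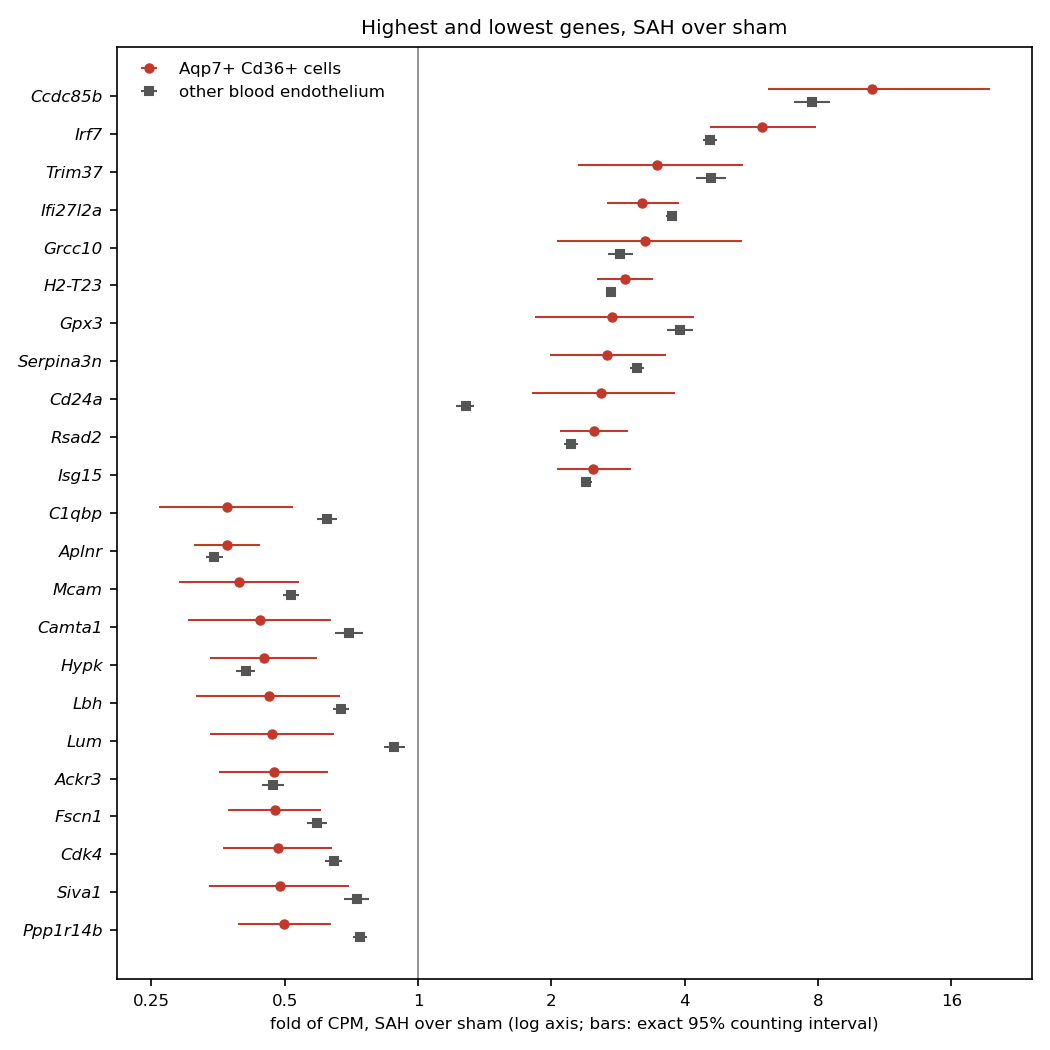
Ratio of CPM, SAH over sham, on a log axis for 11 of the 12 highest and for the 12 lowest genes of the selected cells (circles) and for the same genes in other blood endothelium (squares), with exact 95% counting intervals as bars. All 11 higher genes lie above 1 and all 12 lower genes below 1 in both groups of cells. Cd24a is among those whose intervals in the 2 groups are apart, before thinning.

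Genes at over 10 times their higher level here in another cell class of either library were set apart, since free RNA or attached cells can supply them. Saa3, an acute-phase serum amyloid gene, had 410 UMIs in SAH and 2 UMIs in sham, and its ratio of 113 had a counting interval of [31.1, 937]. Of the SAH UMIs 85.6% lay in 10 cells, and fibroblastic and mural cells of the SAH library held 2351 and 3424 CPM against 247 CPM here. Cpxm1 was 2.60-fold higher and the MHC class II chain gene Cd74 2.33-fold higher, with 73.5% and 68.5% of their SAH UMIs in 10 cells.

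Of 11 complement genes 5 were higher and 1 lower, with a median log2 ratio of 0.57 and of 0.78 in other blood endothelium. C3 had 771 CPM in SAH and 498 CPM in sham (1.55-fold [1.39, 1.73]), and the regulator gene Cd59a had 86.7 CPM in SAH and 37.1 CPM in sham (2.34-fold [1.60, 3.50]). Of 17 genes of haem, iron and redox handling 6 were higher and none lower, with a median of 0.39. In other blood endothelium 5 of 16 were higher and none lower, with a median of 0.41. The ferritin light chain gene Ftl1 stood at 1.42-fold, and Gstp1 had 103 UMIs in SAH and 8 UMIs in sham (7.10-fold [3.47, 16.9]), a gene with a near-identical neighbour copy. Ftl1 was at 1.38-fold and Gstp1 at 4.27-fold in other blood endothelium. Of 14 NF-kB targets 4 were higher and none lower, with a median of 0.17 that turned to −0.44 after thinning. In other blood endothelium 0 of 15 were higher and 2 were lower, with a median of −0.17. Cxcl2, a neutrophil chemokine gene of this list, had 58 UMIs in SAH and 6 UMIs in sham (5.33-fold [2.31, 15.1]). It was at 1.16-fold in other blood endothelium. Its levels were 34.9 CPM in SAH and 6.55 CPM in sham, so only the SAH level was above the 20 CPM asked of the mean. Nfkbia was at 0.784-fold. Icam1 had 50.6 CPM in SAH and 30.6 CPM in sham (1.65-fold [1.07, 2.64]) and belongs also to the 10 leukocyte adhesion genes, of which it and Cd99l2 were higher.

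Of 7 cell cycle genes 3 were lower and none higher, with a median log2 ratio of −0.53 and of −0.62 in other blood endothelium. The median was −0.09 after thinning and −0.19 without the 10 deepest cells of each library, above those of other lists. They were Pcna, Tyms and H2afz, and the mitotic genes Mki67 and Top2a were under the level tested. Of 13 genes of the mitochondrial genome 2 were higher and 1 lower, with a median of −0.25, and the subunit gene mt-Atp6 had 7489 CPM in SAH and 10677 CPM in sham. Notch pathway genes had a median of −0.21 with 1 of 12 lower, and glucocorticoid response genes −0.18 with 2 higher and 2 lower. The clock gene Per1 of that list had 63.2 CPM in SAH and 126 CPM in sham (0.504-fold [0.383, 0.662]). Of 22 immediate early genes, which respond to tissue handling, 1 was higher and 3 were lower, with a median of −0.03. The shear-responsive Klf2 had 1637 CPM in SAH and 2164 CPM in sham, and Atf3 had 99.4 CPM in SAH and 48.1 CPM in sham (2.07-fold [1.48, 2.95]). Of 13 basement membrane genes 1 was higher and 3 lower, among them Col15a1 with 171 CPM in SAH and 324 CPM in sham (0.527-fold [0.447, 0.623]). Medians of the 7 insulin and glucose, 12 glycolysis, 11 heat shock, 9 coagulation, 13 BMP and TGF-beta and 24 nuclear oxidative phosphorylation genes lay between −0.07 and 0.09. The 12 VEGF, angiopoietin and apelin genes had a median of 0.23, with Flt4 higher and Aplnr lower.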

How the data were processed

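RNA of single cells of mandibular lymph nodes was measured with the 10x Genomics Chromium platform, each cDNA molecule being tagged at its 5′ end, per the labels' protocols. The authors deposited raw UMI counts per gene and barcode, not normalized, made with Cell Ranger 5.0 and STAR on build mm10; the submitters' processing notes also name Seurat 3.0.2. The annotation release and the counting of introns are not given in the sources used here. The 27998 features gave 27933 symbols after entries sharing a symbol were summed.

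Cells were kept with at least 500 genes and at most 10% mitochondrial UMIs, selected by UMI limits, and summed per library to CPM. Ratios have exact conditional binomial intervals and shares exact Clopper-Pearson intervals. Genes with a mean of at least 20 CPM over both libraries were compared and counted past 1.5-fold. Doublets were predicted with Scrublet through scanpy 1.11.5 (14 of the 319 SAH and 14 of the 176 sham cells) and kept. Named genes were the markers, the 12 highest and 12 lowest ratios at a mean of at least 50 CPM (0.5 counts added for ranking; leaving out Xist, Y-linked and predicted genes and those for globins, antigen receptors, ribosomal proteins and the mitochondrial genome), the 15 highest and 10 lowest against other blood endothelium, 3 possible free RNA genes (over 10 times higher in another class than in either library's selected cells), and up to 4 examples per list by level or ratio; further list members were named after their values were seen. The members and lists were chosen with earlier results of these data known. Mx2, Trac and Muc19 were not analysed here, and some genes that the rules would name are not reported here. The ratio script was tested on simulated data. Python 3.11.15, numpy 2.4.6, scipy 1.17.1, R 4.3.3 and edgeR 4.0.16 (TMM scaling only) were used.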

Additional observations from a re-analysis of the deposited data

Results flagged for a closer look

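For 2 genes the SAH over sham ratio of the selected cells lay on the other side of 1 from that of other blood endothelium, with both counting intervals clear of 1, and the difference between the groups of cells was not tested. The monocyte chemokine gene Ccl2 stood at 2.02-fold [1.19, 3.62] in the selected cells, with 39.8 CPM in SAH and 19.7 CPM in sham, and at 0.572-fold [0.538, 0.609] in other blood endothelium, with 42.7 and 74.6 CPM. The protease inhibitor gene Timp4 stood at 1.31-fold [1.14, 1.5] in the selected cells, with 419 CPM in SAH and 321 CPM in sham, and at 0.718-fold [0.681, 0.757] in other blood endothelium, with 62.9 and 87.6 CPM. Groups within other blood endothelium differed: high endothelial cells had 137 CPM in SAH and 319 CPM in sham, Kit and Aqp1 cells 16.1 and 16.4 CPM, Col13a1 cells 19.3 and 10.5 CPM and arterial cells 36.5 and 20.5 CPM. Cells that met the UMI limits but not the limits on genes or mitochondrial UMIs were 20 in SAH and 23 in sham. They had 24795 CPM of Fabp4 in SAH and 23747 CPM in sham, near the selected cells, and were not used elsewhere.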

How the results depend on the processing

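No paired analysis was possible because each group is 1 library, and for the same reason no replicate could be left out. Of 796 values recomputed under other settings, 722 stayed the same, 72 moved and 2 reversed. The same meant within the spread of a list, within the counting interval of a gene or share, or within 1.5-fold for counts of genes. For genes and lists, reversed was used only where the main ratio was past 1.5-fold. A smaller ratio that changed sign was counted as moved or as the same. Counts of genes past 1.5-fold depend on depth and on the filter. The higher genes numbered 1210 after thinning to 2000 UMIs, 366 with Gpihbp1 in place of Aqp7, 268 with a mean of at least 50 CPM and 2146 with no filter, against 640. The lower genes numbered 1060, 183, 175 and 1968 under the same settings and 798 with at least 2 UMIs of Aqp7 and Cd36, against 422. Of list medians, thinning gave 0.45 for interferon-stimulated, −0.44 for NF-kB, 0.26 for basement membrane and 0.01 for mitochondrial genes. The last was 0.03 with at least 2 UMIs and −0.31 without cells holding UMIs of other cell types, and the complement median was 1.10 without predicted doublets. At its lowest the complement median was 0.16. The log2 ratio of Lum, −1.09, was 0.39 after thinning and 0.15 without predicted doublets. The cause was not tested; thinning also leaves fewer cells and UMIs. The ratio of shares ranged from 1.49 to 1.93 over its 8 alternatives. The settings that use Aqp7 alone or leave out cells rich in haemoglobin were chosen after seeing the data.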
